A study of Mus musculus with 6 samples.

Results

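RAS proteins are small GTPases that switch on when an exchange factor loads them with GTP and switch off when a GTPase-activating protein (GAP) speeds up hydrolysis of that GTP. The genes of this switch were looked up by name in the deposited table of 54532 genes, and each of the 9 had 1 row. They are the GTPase genes *Hras* and *Nras*, the exchange factor genes *Rasgrp1*, *Rasgrp2*, *Rasgrp3* and *Rasgrp4*, and the GAP genes *Rasa1*, *Nf1* and *Rasal3*. RASGRP proteins carry a domain that binds diacylglycerol, the lipid that phospholipase C makes below many blood cell receptors, so they link those receptors to RAS. Mutations that activate NRAS and loss of NF1 are well known in human myeloid leukemia, which makes this switch of interest in acute myeloid leukemia (AML).

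RNA was sequenced from GFP+ leukemia cells sorted from mouse bone marrow, in 3 *WT Phf6,RE9a* libraries (replicates 1, 2 and 3) and 3 *VC Phf6,RE9a* libraries (replicates 11, 12 and 13). Both groups carried a floxed *Phf6* allele on the single X chromosome of male cells (Phf6 fl/y) and the retrovirus RE9a-GFP, which encodes RUNX1-ETO9a, a short form of the t(8;21) fusion protein. *VC Phf6,RE9a* cells also carried Vav1-Cre, which deletes *Phf6* throughout the blood system, and *WT Phf6,RE9a* cells had no Cre. The retrovirus was put into fetal liver progenitors, and the leukemias were passed through young adult male recipients. The passage sequenced and the number of mice or clones behind the 3 libraries of a group are not given in the sources used here, so p-values measure the spread between these libraries, which may be technical.

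The deposited read counts summed to between 15675358 and 16817994 per library. *Phf6* had 1044, 827 and 1142 counts in *WT Phf6,RE9a* and 388, 314 and 331 counts in *VC Phf6,RE9a* libraries, or -1.66 on the log2 scale (standard error, SE, 0.13, edgeR adjusted p = 9.32e-05). The *WT Phf6,RE9a* cells were rich in transcripts of mast cells and basophils. A list of 10 such markers (*Cpa3*, *Cma1*, *Kit*, *Hdc* and others) summed to between 19090 and 30030 CPM (counts scaled to library size) in *WT Phf6,RE9a* and between 4972 and 5424 CPM in *VC Phf6,RE9a* libraries. Of these 10 markers, 9 passed the test as lower and 0 were at 0 in all libraries. In *VC Phf6,RE9a* libraries *Hdc*, *Ms4a2* and *Gata2* had means of 2563, 1076 and 859 CPM, while *Fcer1a* had 5.30 and *Mcpt4* 4.37 CPM. A list of 9 neutrophil markers went the other way, from between 161 and 514 CPM to between 1005 and 3589 CPM, with all 9 higher. All 5 erythroid markers were higher as well, and 1 of 6 macrophage markers. A list of 7 genes that mark myeloid leukemia cells summed to between 2221 and 3578 CPM in *WT Phf6,RE9a* and between 469 and 671 CPM in *VC Phf6,RE9a* libraries, with 3 higher (*Mpo*, *Itgam* and *Cebpa*) and 2 lower (*Kit* and *Cd34*). On the log2 scale the change was -4.63 for *Cd34*, 2.31 for *Itgam* and 1.94 for *Cebpa*. The remaining genes did not pass the threshold, and of them *Ptprc* (CD45) had a mean of 1.23 and 2.22 FPKM and *Spi1* (PU.1) of 30.4 and 34.8 FPKM in *WT Phf6,RE9a* and *VC Phf6,RE9a* libraries. In bulk RNA, fewer cells of a type and less RNA per cell cannot be told apart.

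In *VC Phf6,RE9a* cells all 3 GAP genes were lower, and so was *Rasgrp4*, which had the highest level of the 4 RASGRP genes. The GTPase genes *Hras* and *Nras*, *Rasgrp1* and *Rasgrp2* did not pass the threshold, and *Rasgrp3* was near 0 in every library. The genes were tested with edgeR on the counts, and the p-values were adjusted over all 14169 genes with enough reads, at a threshold of 0.05. Of the 9 genes 8 could be tested, 4 were lower and 0 higher in *VC Phf6,RE9a* cells. Among all genes tested 22.7% were lower, 21.5% were higher and 44.2% changed in either direction. At an unadjusted p under 0.05 edgeR had 5 of the 8 genes lower and 1 (*Rasgrp1*) higher, against 26.4% and 25.8% of all genes tested. DESeq2 had 4 lower and 0 higher at an adjusted p under 0.05, and limma on the deposited FPKM 3 lower and 0 higher. The median log2 fold change of the 8 genes was -0.43, against 0.013 over all genes tested. When a 2-fold change was also required, 2 were lower and 0 higher, where all genes had 11.5% lower and 9.95% higher. In 6 of the 8 the groups of 3 libraries did not overlap, as in 57.3% of all genes tested. *Rasgrp1* is counted among these 6 and as the 1 higher gene at an unadjusted p under 0.05. It had enough reads to be tested only through the *VC Phf6,RE9a* libraries, where it was higher.

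**Figure D1:**
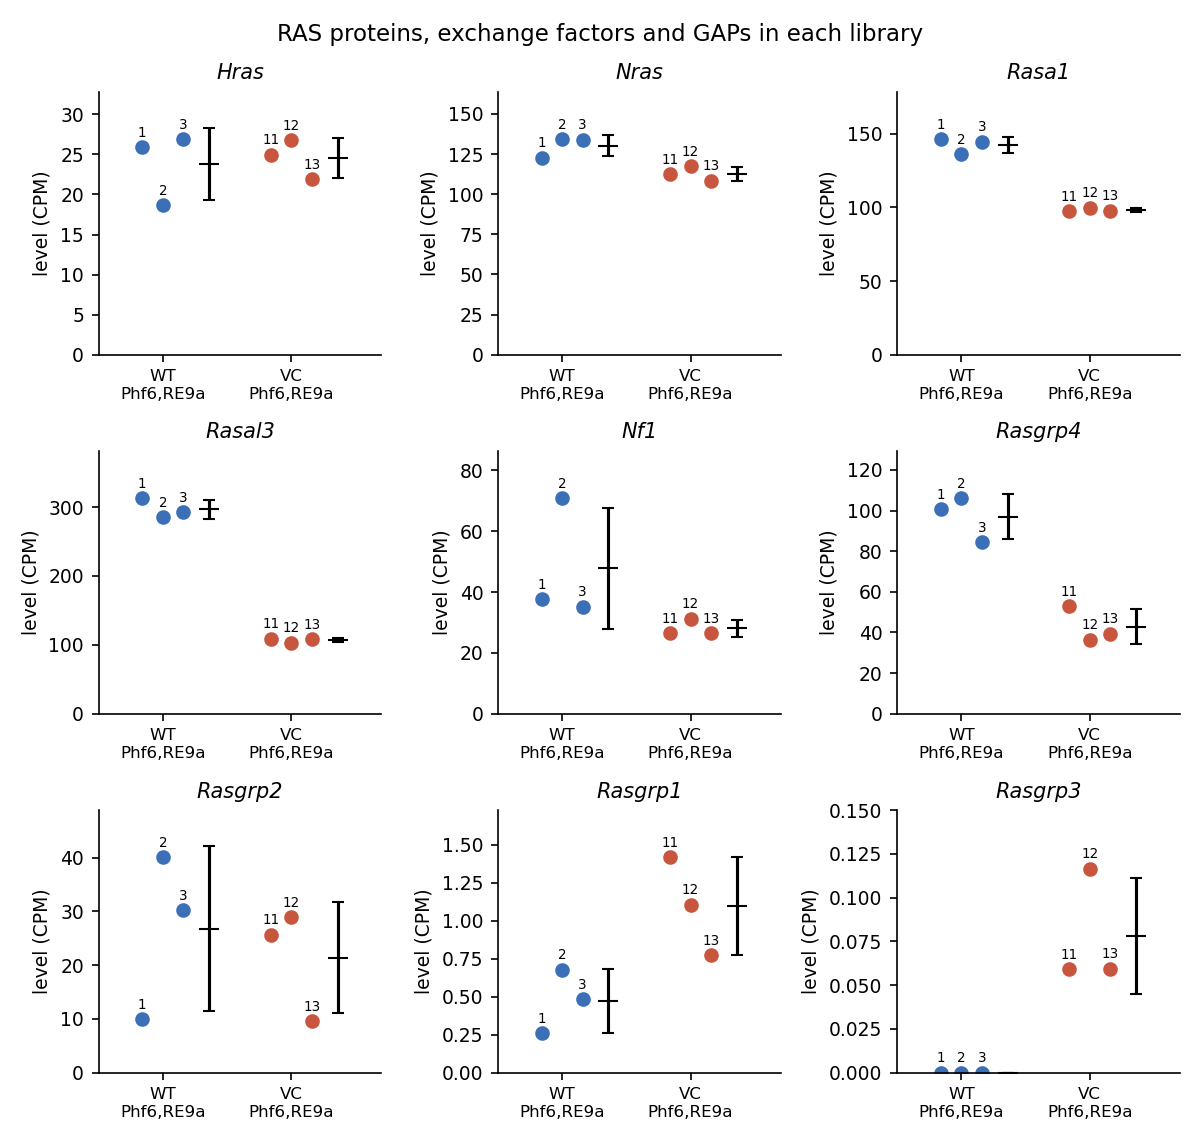
Level in CPM (vertical axes, linear from 0) of the 9 genes in each library, numbered by replicate, with mean and SD (n = 3) in black beside each group. *Rasal3*, *Rasa1* and *Rasgrp4* sit lower in all 3 *VC Phf6,RE9a* libraries, while *Hras* and *Rasgrp2* overlap between the groups.

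*Rasal3* encodes a RAS GAP found mainly in blood cells. It lies on chromosome 17 of GRCm38 from 32390659 to 32403583 on the minus strand. Its level was 313, 285 and 292 CPM in *WT Phf6,RE9a* libraries (4815, 4204 and 4832 counts) and 109, 103 and 108 CPM in *VC Phf6,RE9a* libraries (1840, 1769 and 1816 counts). The *VC Phf6,RE9a* libraries were all far under the lowest *WT Phf6,RE9a* library and close to each other. The level fell to 35.9% of that in *WT Phf6,RE9a* cells, which is a log2 fold change of -1.48 (SE 0.08, 95% interval -1.66 to -1.29, edgeR adjusted p = 2.84e-05). Among the 8 tested genes this was the largest fall.

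*Rasa1*, on chromosome 13 from 85214780 to 85289130, encodes p120 RasGAP, which binds phosphorylated receptors through its SH2 domains. It had 146, 136 and 144 CPM in *WT Phf6,RE9a* and 97.5, 99.7 and 97.8 CPM in *VC Phf6,RE9a* libraries. The groups did not overlap, and the 3 *VC Phf6,RE9a* values were almost equal. The log2 fold change was -0.53 (SE 0.07, 95% interval -0.70 to -0.36, edgeR adjusted p = 0.00104), a fall to 69.2%.

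*Nf1*, on chromosome 11 from 79339693 to 79581612, encodes neurofibromin, the GAP lost in neurofibromatosis. It had 37.7, 70.8 and 35.2 CPM in *WT Phf6,RE9a* and 26.4, 31.2 and 26.5 CPM in *VC Phf6,RE9a* libraries. *WT Phf6,RE9a* replicate 2 stood well above the other two libraries of its group, and the groups did not overlap. The log2 fold change was -0.77 (SE 0.26, 95% interval -1.38 to -0.16, edgeR adjusted p = 0.0446). Without *WT Phf6,RE9a* replicate 2 it was -0.39 (adjusted p = 0.0339). The call was lost without any 1 of the *VC Phf6,RE9a* libraries (adjusted p = 0.124 without replicate 11, 0.0800 without replicate 12 and 0.111 without replicate 13) and with limma on log2(FPKM + 1) (adjusted p = 0.0962), so the fall of *Nf1* is less firm than those of *Rasal3*, *Rasa1* and *Rasgrp4*, which passed in every fit.

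**Figure D2:**
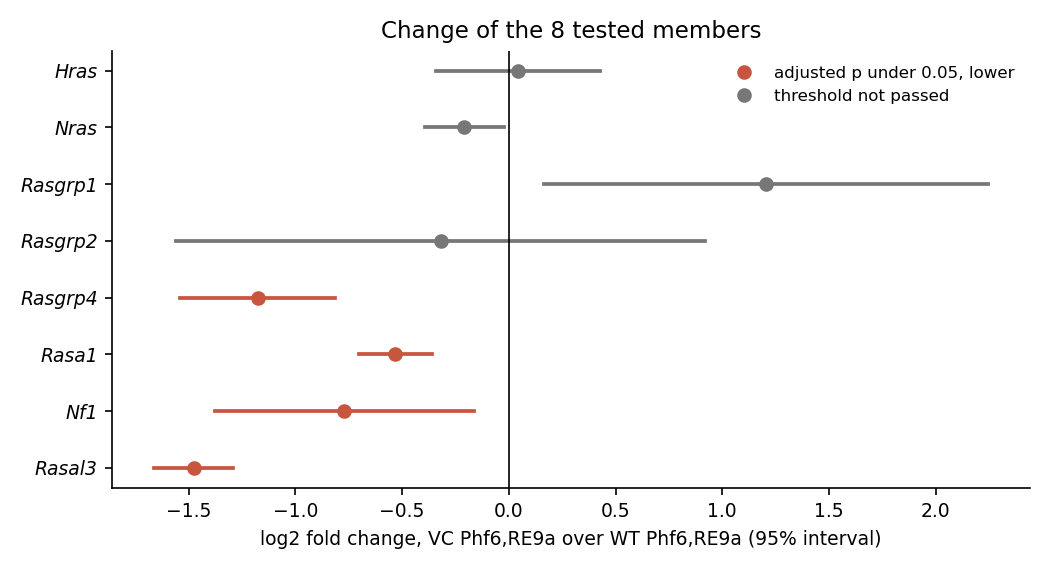
Log2 fold change of *VC Phf6,RE9a* against *WT Phf6,RE9a* cells (horizontal axis) for the 8 tested genes, with 95% intervals from edgeR. The 4 genes in red passed the threshold and are all lower, from -0.53 for *Rasa1* to -1.48 for *Rasal3*.

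The stretches of DNA before the starts of *Rasal3* and *Rasa1* are shown because both genes fell in every fit and RUNX1-ETO9a keeps the DNA-binding domain of RUNX1. They are the 250 bases before the RefSeq start on GRCm38.p6, read 5′ to 3′ on the strand of the gene, at chr17:32403582-32403831 (minus strand) and chr13:85289487-85289736 (minus strand). Capitals mark matches, on either strand, to the letters TGTGGT for RUNX factors, to AGATAA for GATA factors, to CCGGAA for ETS factors and to CACGTG for E-box factors. No match overlapped another in these 2 stretches. All 250 bases before *Rasal3* lie in annotated exons of the antisense transcript or of *Rasal3* itself, and 0 of those before *Rasa1* lie in an exon.
Rasal3: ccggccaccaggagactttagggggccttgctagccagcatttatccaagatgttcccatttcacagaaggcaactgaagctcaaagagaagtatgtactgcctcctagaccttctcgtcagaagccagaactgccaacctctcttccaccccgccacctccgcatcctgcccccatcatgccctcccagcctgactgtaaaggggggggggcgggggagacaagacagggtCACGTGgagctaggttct
Rasa1: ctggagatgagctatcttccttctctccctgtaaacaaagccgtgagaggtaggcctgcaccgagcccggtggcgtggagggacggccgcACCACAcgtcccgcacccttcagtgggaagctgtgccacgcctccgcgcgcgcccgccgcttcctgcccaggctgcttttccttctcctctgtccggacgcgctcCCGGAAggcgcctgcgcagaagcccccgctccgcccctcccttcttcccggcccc
The *Rasal3* stretch held 1 E-box and none of the other motifs, and had 57.6% G and C with 6 CG pairs. The *Rasa1* stretch held 1 RUNX and 1 ETS match, and had 68.8% G and C with 24 CG pairs. Over all 32851 RefSeq promoters of this length 14.05% held the RUNX letters, 9.99% the GATA letters, 12.03% the ETS letters and 6.02% the E-box. A promoter was at hand for 8 of the 9 genes, not for *Rasgrp4*. The RUNX letters stood before *Hras* and *Rasa1*, the GATA letters before *Nras*, the E-box before *Nras* and *Rasal3*, and the ETS letters before 5 genes (*Hras*, *Rasgrp2*, *Rasgrp3*, *Rasa1* and *Nf1*). A match of letters is a description and no binding site.

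*Rasgrp4* encodes an exchange factor first known from mast cells and also made by other myeloid cells. It lies on chromosome 7 from 29134851 to 29153961. Its level was 101, 106 and 84.5 CPM in *WT Phf6,RE9a* (1549, 1562 and 1397 counts) and 52.8, 36.5 and 39.4 CPM in *VC Phf6,RE9a* libraries (894, 627 and 663 counts). All *VC Phf6,RE9a* libraries were under all *WT Phf6,RE9a* libraries, with replicate 11 the highest of its group. The log2 fold change was -1.18 (SE 0.16, 95% interval -1.54 to -0.81, edgeR adjusted p = 0.000878), a fall to 44.2%. Of the 10 mast cell and basophil markers given above 9 fell in the same libraries, the median over the list being -3.88 on the log2 scale, and their part in the change of *Rasgrp4* was not tested.

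*Rasgrp2*, which encodes CalDAG-GEFI and is best known from platelets, where it acts mainly on RAP1, lies on chromosome 19 from 6399340 to 6415216. It had 9.93, 40.0 and 30.3 CPM in *WT Phf6,RE9a* and 25.7, 28.9 and 9.63 CPM in *VC Phf6,RE9a* libraries. One library of each group, *WT Phf6,RE9a* replicate 1 and *VC Phf6,RE9a* replicate 13, was low, and the groups overlapped. The log2 fold change was -0.32 (SE 0.53, 95% interval -1.56 to 0.92, edgeR adjusted p = 0.658), so a change of 2-fold in the downward direction lies within the interval. The estimate turned to 0.078 when *WT Phf6,RE9a* replicate 2 was left out and to 0.029 when *VC Phf6,RE9a* replicate 13 was. A list of 6 megakaryocyte and platelet markers summed to between 247 and 362 CPM in *WT Phf6,RE9a* libraries and to between 37.4 and 43.9 CPM in *VC Phf6,RE9a*. Neutrophil markers summed to 3589, 2328 and 1005 CPM in *VC Phf6,RE9a* replicates 11, 12 and 13 and to 206, 161 and 514 CPM in *WT Phf6,RE9a* replicates 1, 2 and 3. The low library of *VC Phf6,RE9a* thus also had the lowest neutrophil sum of its group, and the low library of *WT Phf6,RE9a* did not. The part of platelets and neutrophils in the level of *Rasgrp2* was not tested.

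*Rasgrp1*, on chromosome 2 from 117279993 to 117343001, encodes the exchange factor that joins the T cell receptor to RAS. It had only 4, 10 and 8 counts in *WT Phf6,RE9a* and 24, 19 and 13 counts in *VC Phf6,RE9a* libraries, or 0.260, 0.678 and 0.484 CPM against 1.42, 1.11 and 0.772 CPM. The libraries of *VC Phf6,RE9a* were all above those of *WT Phf6,RE9a*, and the gene had enough reads to be tested only because of them. The log2 fold change was 1.20 (SE 0.45, 95% interval 0.16 to 2.25, edgeR adjusted p = 0.0614), which did not pass the threshold. A list of 6 T cell markers summed to between 0.649 and 1.695 CPM in *WT Phf6,RE9a* and between 6.89 and 8.38 CPM in *VC Phf6,RE9a* libraries. Only *Lck* had enough reads to be tested, through the *VC Phf6,RE9a* libraries alone (5, 8 and 16 counts against 95, 117 and 90). No marker of the list was at 0 in all libraries, *Cd3e* had at most 6 counts in any library, and the part of T cells in the level of *Rasgrp1* was not tested.

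*Rasgrp3*, on chromosome 17 from 75435905 to 75529043, encodes the exchange factor of B cell receptor signaling. It had 0 counts in each *WT Phf6,RE9a* library and 1, 2 and 1 counts in the *VC Phf6,RE9a* libraries. All 6 values are at or under 3 counts, the limit that a count of 0 allows (0.174 to 0.203 CPM), so a difference was not detectable at this depth. Such limits cover counting error alone. A list of 6 B cell markers summed to between 0.611 and 1.10 CPM in *WT Phf6,RE9a* libraries and to between 9.03 and 26.9 CPM in *VC Phf6,RE9a* libraries. The 4 of these markers that could be tested had at most 10 counts in a *WT Phf6,RE9a* library and had enough reads only through the *VC Phf6,RE9a* libraries.

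Both GTPase genes encode the switch itself, and their proteins are nearly alike outside the tail that carries the lipids. *Nras*, on chromosome 3 from 103058285 to 103067914, had 123, 134 and 134 CPM in *WT Phf6,RE9a* and 112, 117 and 108 CPM in *VC Phf6,RE9a* libraries. Each *VC Phf6,RE9a* library was under each *WT Phf6,RE9a* library, although by little. The log2 fold change was -0.21 (SE 0.08, 95% interval -0.39 to -0.02, edgeR adjusted p = 0.0660), so the gene missed the threshold once adjusted over all genes, and the interval holds no fall as large as that of *Rasal3* or *Rasgrp4*. *Hras*, on chromosome 7 from 141189105 to 141194005, had 25.9, 18.7 and 26.9 CPM in *WT Phf6,RE9a* and 25.0, 26.8 and 21.9 CPM in *VC Phf6,RE9a* libraries. The groups overlapped, with a log2 fold change of 0.04 (SE 0.17, 95% interval -0.34 to 0.43, edgeR adjusted p = 0.850). The estimate turned to -0.11 when *WT Phf6,RE9a* replicate 2, the lowest library, was left out, and to -0.020 when *VC Phf6,RE9a* replicate 12 was.

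Levels of different genes were compared in FPKM, which divides by gene length. In *WT Phf6,RE9a* cells the order was *Rasal3* (60.2 ± 3.18 FPKM, SD, n = 3), *Nras* (24.3 ± 1.10), *Rasa1* (19.3 ± 0.787), *Rasgrp4* (15.2 ± 1.78), *Hras* (6.34 ± 1.20), *Nf1* (2.999 ± 1.24), *Rasgrp2* (2.14 ± 1.23), *Rasgrp1* (0.0840 ± 0.0369) and *Rasgrp3*. Among neighbours in that order, *Nf1* and *Rasgrp2* were the pair whose 3 libraries overlapped. In *VC Phf6,RE9a* cells the order by mean was the same, but *Rasal3* (21.5 ± 0.517 FPKM, SD, n = 3) overlapped with *Nras* (20.9 ± 0.951), *Rasgrp4* (6.65 ± 1.34) overlapped with *Hras* (6.499 ± 0.688), and *Nf1* again overlapped with *Rasgrp2*.

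The make-up of each role was described from these levels, with no test. *Nras* made up 79.3% ± 3.58 of the FPKM of both GTPase genes in *WT Phf6,RE9a* cells, against 76.3% ± 1.14 in *VC Phf6,RE9a* (SD, n = 3), and the sum was 30.6 ± 1.18 and 27.4 ± 1.63 FPKM. The 4 RASGRP genes summed to 16.7, 19.8 and 15.6 FPKM in *WT Phf6,RE9a* and to 10.5, 8.24 and 6.99 FPKM in *VC Phf6,RE9a* libraries. Each sum in *VC Phf6,RE9a* was under each in *WT Phf6,RE9a*, and *Rasgrp4* supplied between 69.2% and 94.9% of it in every library. The GAP genes summed to 86.2, 80.6 and 80.8 FPKM in *WT Phf6,RE9a* and to 36.7, 36.4 and 36.4 FPKM in *VC Phf6,RE9a* libraries. The share of *Rasal3* in that sum went from 72.9% ± 1.223 to 58.9% ± 1.23 and that of *Rasa1* from 23.4% ± 0.682 to 36.4% ± 0.726 (SD, n = 3), without overlap between the groups.

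**Figure D3:**
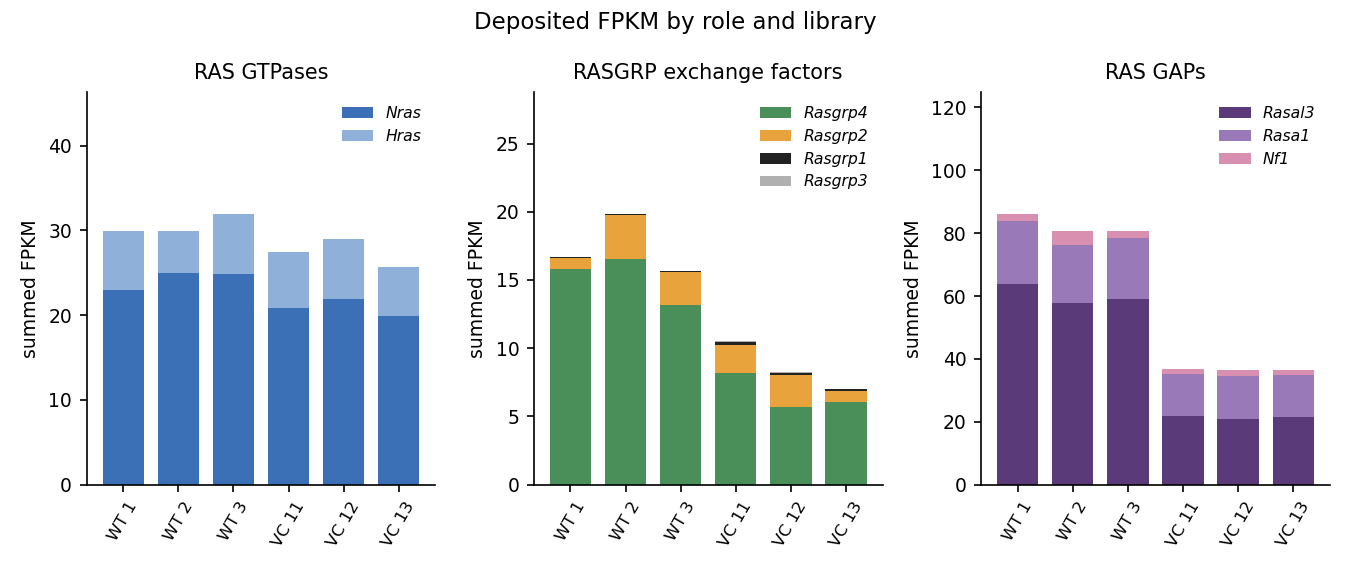
Deposited FPKM of the members of each role, stacked, in each library (linear axes from 0, with a scale of their own). The GTPase bars lie between 25.7 and 32.0 FPKM, while the bars of the RASGRP genes and of the GAP genes are lower in every *VC Phf6,RE9a* library than in any *WT Phf6,RE9a* library.

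The genes with the pattern most like that of *Rasal3* were sought among all genes tested, by the root mean square difference in log2 CPM over the 6 libraries after centring each gene on its mean. They were *Ncoa4*, which encodes the receptor that brings ferritin to autophagy (difference 0.056, log2 fold change -1.39), *Zfp362* (0.081 and -1.45) and *Dhrs1* (0.084 and -1.47). *Ncoa4* had 367, 337 and 328 CPM in *WT Phf6,RE9a* and 137, 129 and 129 CPM in *VC Phf6,RE9a* libraries.

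Other genes of the RAS pathway were taken from a list of 76 genes in 9 groups, of which 68 were tested. Of these, 27 (39.7%) were lower and 12 (17.6%) higher in *VC Phf6,RE9a* cells, against 22.7% and 21.5% of all genes, and the median log2 fold change was -0.19. Of the other exchange factor genes 2 were tested. *Sos2*, with the highest level, had 8.80 and 6.92 FPKM and missed the threshold (-0.34 on the log2 scale, SE 0.20, edgeR adjusted p = 0.200). *Sos1* was lower, at 5.78 and 4.37 FPKM (-0.40 on the log2 scale, SE 0.10, edgeR adjusted p = 0.0143). Other GAP genes went both ways, with 3 of 6 tested lower and 2 higher. *Rasa3* had a log2 fold change of -2.48 (SE 0.31 and edgeR adjusted p = 0.000646) and *Rasa2* of -0.90, whereas *Dab2ip* rose by 2.42 and *Rasal2* by 1.75. Among genes that make or remove diacylglycerol or act with it, 6 of 12 were lower and 3 higher. The adaptor genes *Lat2* (log2 fold change -3.83) and *Lat* (-2.59) and *Plcg1* (-2.93), which encodes phospholipase C gamma 1, fell, and *Dgkz*, which encodes a kinase that removes diacylglycerol and had the highest level of the group, rose by 0.52. The opposite held for *Dgkd*, which encodes another such kinase and fell from 52.9 to 20.9 FPKM (-1.33, edgeR adjusted p = 0.000581). *Plcb3*, which encodes another phospholipase C, rose by 0.59 (edgeR adjusted p = 0.00312). Of genes whose transcription follows ERK activity 11 of 13 were tested, 8 were lower and 2 (*Ccnd1* and *Spry1*) higher. *Ccnd1* had 9, 5 and 16 counts in *WT Phf6,RE9a* and 41, 23 and 27 in *VC Phf6,RE9a* libraries. *Spry1* had 15, 18 and 23 against 53, 47 and 43 counts. Among the lower genes *Spred1*, whose protein brings neurofibromin to the membrane, went from 41.1 to 2.09 FPKM. *Egr1*, with the highest level of that group, went from 928 to 516 FPKM. *Dusp4*, which encodes a phosphatase of ERK, had 109, 93 and 76 counts in *WT Phf6,RE9a* and 4, 1 and 0 in *VC Phf6,RE9a* libraries, and *Etv5*, which encodes an ETS factor, had 285, 174 and 190 against 3, 7 and 3 counts. The change of *Braf*, which encodes the kinase that RAS brings to the membrane, was -1.16 (SE 0.19, edgeR adjusted p = 0.00230).

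**Figure D4:**
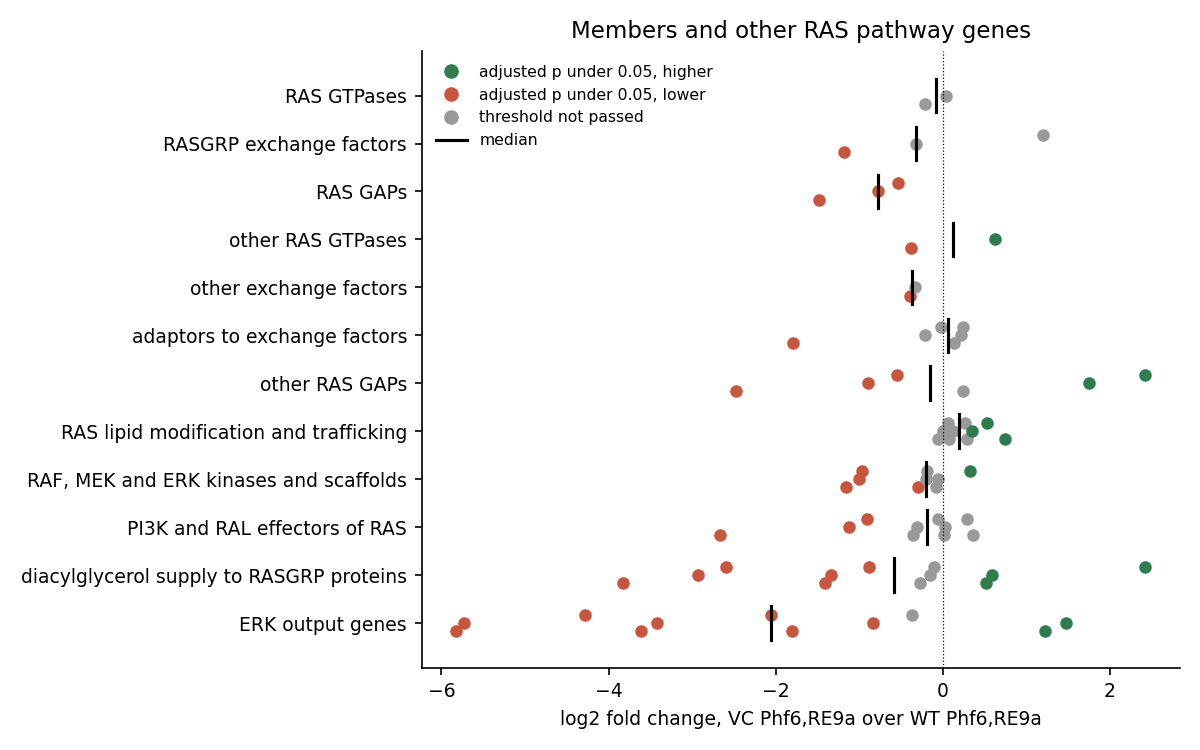
Log2 fold change of *VC Phf6,RE9a* against *WT Phf6,RE9a* cells (horizontal axis) for each tested gene of the 3 roles and of the 9 other groups, 1 point a gene, with the median of each group as a black line. The 3 GAP genes at hand are all lower, while the other RAS GAP genes lie on both sides of 0.

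Reads could be shared with other genes for part of the set. Of all stretches of 50 bases in the transcripts of *Rasgrp4* 13.95% also occurred in a transcript of another gene in GENCODE M21, and so did 10.52% of those of *Rasal3*, all of these in an antisense transcript that is not analysed here. The share was at most 2.67% in the other 7 genes. The exons of *Rasgrp4* also overlap those of *Fam98c* on the other strand over 978 of 6363 bases. *Fam98c* had between 327 and 372 counts in *WT Phf6,RE9a* and between 275 and 313 in *VC Phf6,RE9a* libraries, was itself lower (log2 fold change -0.39, edgeR adjusted p = 0.0412), and whether the counting used the strand is not given in the sources used here.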

How the data were processed

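The authors deposited 1 table with read counts per Ensembl gene, not normalized, for 6 libraries (Illumina TruSeq, paired-end reads). They also deposited FPKM, which equals the count divided by the gene length of the table and by a library size that they scaled (14859345 to 17287188). Columns with the authors' own comparison (mean normalized counts, fold changes and p-values from DESeq2) were not used. The submitters' processing notes name Bowtie 0.12.0 and the build mm8, with no role. The role of each, the counting tool and the strand setting are not given in the sources used here. The coordinates of the table are those of GRCm38, since 98.33% of the 54409 genes found in GENCODE M21 had the same start and end there, including 8 of the 9 genes reported and not *Rasgrp3*.

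Counts were filtered by filterByExpr, scaled by TMM and tested with the quasi-likelihood test of edgeR 4.0.16 in R 4.3.3, *VC Phf6,RE9a* against *WT Phf6,RE9a*, with Benjamini-Hochberg adjusted p-values. CPM use the TMM-scaled library sizes. A standard error (SE) is the estimate over the root of its F statistic, and an interval uses the fit's degrees of freedom. No libraries were merged, as the chi-square per gene between libraries of the same group was 11.8 to 46.4. Scripts were tested on simulated data.

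The genes, lists and tests were chosen with earlier results of these data known. The wider RAS list and the markers were written by hand, and the text names all 9 genes, in each list the gene with the highest level or the largest changes of at least 2-fold, and the nearest patterns to the gene that fell most. *Sos1*, *Rasa2*, *Dgkd*, *Plcb3*, *Ccnd1*, *Spry1*, *Fntb*, *Golga7*, *Zdhhc9*, *Map2k1* and *Map2k2* are named after their values were seen. So are the markers *Ms4a2*, *Gata2*, *Fcer1a* and *Mcpt4*, and not every gene that the rule picks is reported here. Alternatives were DESeq2 1.42.0, size factors (RLE), other count filters, limma 3.58.1 on log2(FPKM + 1), a minimum of 2-fold and each library left out. Promoters are from RefSeq. Figures were drawn with matplotlib 3.10.9.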

Additional observations from a re-analysis of the deposited data

How the results depend on the processing

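No paired analysis was possible because the groups share no replicate numbers. The log2 fold changes of *Rasal3*, *Rasa1* and *Rasgrp4* kept their direction and passed the threshold with RLE scaling, with DESeq2 or limma, with the count filter dropped or raised to 10, and with each library left out. That of *Nf1* was -0.50 with limma on log2(FPKM + 1) and no longer passed, and its estimate was between -0.96 and -0.39 with single libraries left out. The cause was not tested. With single libraries left out, the change of *Hras* ran from -0.11 to 0.13 (-0.11 when *WT Phf6,RE9a* replicate 2 was dropped, -0.020 when *VC Phf6,RE9a* replicate 12 was), and that of *Rasgrp2* from -0.72 to 0.078 (0.078 when *WT Phf6,RE9a* replicate 2 was dropped, 0.029 when *VC Phf6,RE9a* replicate 13 was), so neither has a direction. *Rasgrp1* did not pass in any of its fits, with adjusted p from 0.0545 to 0.200. With at least 10 counts in every library it was not tested. A minimum of 2-fold left 2 of the 4 lower genes, *Rasal3* and *Rasgrp4*, and 17 lower and 5 higher genes of the wider RAS list. Over all genes it left 1410 higher and 1625 lower, in place of 3047 and 3213. The depth limits *Rasgrp1* and *Rasgrp3*, which had at most 24 and 2 counts in a library.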

Other observations

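Among genes that modify or move RAS proteins, 3 of 10 tested passed the edgeR threshold as higher in *VC Phf6,RE9a* cells and 0 as lower, where 21.5% and 22.7% of all genes did, so the share higher is near that of all genes. These were *Fntb*, which encodes a subunit of farnesyltransferase (log2 fold change 0.74, SE 0.11), and *Golga7* (0.53, SE 0.09) and *Zdhhc9* (0.35, SE 0.10), which together encode the palmitoyltransferase of HRAS and NRAS. They are named after their values were seen. *Abhd17a*, with the highest level of the group at 43.3 and 51.8 FPKM, missed the threshold at a log2 fold change of 0.27 (edgeR adjusted p = 0.0642). Other GTPases included *Rras*, which was higher by 0.62 in log2 (SE 0.19, edgeR adjusted p = 0.0286).

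The MEK genes went opposite ways, with *Map2k1* falling from 24.7 to 12.3 FPKM (log2 fold change -0.999, SE 0.11) and *Map2k2* rising from 21.4 to 26.5 FPKM (log2 fold change 0.32, SE 0.09), both at an adjusted p under 0.05 from edgeR. The adaptor gene *Gab2* fell from 69.6 to 19.9 FPKM (log2 fold change -1.80, SE 0.10), while *Grb2* at 118 and 101 FPKM missed the threshold (edgeR adjusted p = 0.0793). *Tiam1* (log2 fold change -2.67) and *Pik3cd* (-1.13) were the effector genes that fell by at least 2-fold.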
